A study of Mus musculus with 12 samples.

Results

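*Lce1g*, *Prr9* and *Sprr2h* are epidermal barrier genes that lie in a single cluster on chromosome 3, and their RNA was followed in C2C12, a mouse skeletal myoblast line. They were chosen by their fold change in PPARγ/+ cells, as the 3 genes that fell most there between 0d and 5d, out of 46983 genes in the deposited table, of which 27138 were above 0 in at least 1 library. The values that chose them were therefore those of the PPARγ/+ libraries, and every PPARγ/+ value of these 3 genes below is a description without a test. The WT libraries took no part in that choice, but they cover the same days of differentiation in the same cell line.

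The study asked how overexpression of PPARγ, a nuclear receptor best known for driving fat cell formation, changes the differentiation of myoblasts into myotubes. RNA was sequenced in 4 groups of 3 libraries, 12 in all, and expression was given as FPKM, the fragments of a gene scaled to the length of its exons and to the mapped fragments of the library. WT_0d and WT_5d are C2C12 cells of the PB-IP group, named after the PiggyBac vector and listed with a wild type genotype, before differentiation and on day 5 of it. PPARγ/+_0d and PPARγ/+_5d are C2C12 cells into which the same vector with the PPARγ coding sequence was brought together with a transposase, followed by selection of positive clones with puromycin, on the same days. All groups were described as grown in a medium with fetal bovine serum and LIF, and a separate medium for differentiation was not given in the sources used here. The series' design text calls the PPARγ cells inducible and the controls uninduced, whereas the names of the control samples give the vector, so the treatment of the controls is known only to that extent. How many clones the PPARγ/+ cells came from was not given in the sources used here.

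The cornified envelope is a layer of cross-linked protein that replaces the membrane of keratinocytes as they die at the surface of the skin. Its building blocks are small precursor proteins, among them the late cornified envelope proteins (Lce), the small proline-rich proteins (Sprr) and loricrin, whose genes sit side by side in the epidermal differentiation complex and are linked into the envelope by transglutaminases. In the mouse this complex is on chromosome 3, and its genes are known for their use in stratified epithelia rather than in muscle.

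In the GRCm38 annotation *Prr9* (ENSMUSG00000056270) occupies chr3:92122204-92123947 on the minus strand, *Sprr2h* (ENSMUSG00000046259) chr3:92385685-92387324 on the plus strand and *Lce1g* (ENSMUSG00000027919) chr3:92750148-92752338 on the minus strand, so that the 3 genes span 630.1 kb. *Prr9* encodes a proline-rich protein of the complex, *Sprr2h* a small proline-rich protein and *Lce1g* a late cornified envelope protein. They are short genes, with 1183, 752 and 925 bases of exon. Of the distinct 50-base runs in the annotated transcript of *Lce1g*, 17.8% also occurred in transcripts of 12 other genes, with *Lce1j* sharing the most, so part of its fragments could have been assigned to or lost from these copies. No such run of *Prr9* or *Sprr2h* occurred in another gene. *Prr9* overlapped the gene AC138676.1 by position but shared 0 bases of exon with it. Whether counting used the strand of the reads was not stated.

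The 250 bases before the annotated start of each gene are shown because all 3 genes fell in WT cells too, beside the fall that chose them. They are in the orientation of the gene and as given by RefSeq for GRCm38.p6. Capitals mark matches to TGANTCA, a site of AP-1 (Fos and Jun proteins), to GGAATG, a site of TEAD factors, and to TATAAA, the TATA box.
Prr9, chr3:92123948-92124197, minus strand: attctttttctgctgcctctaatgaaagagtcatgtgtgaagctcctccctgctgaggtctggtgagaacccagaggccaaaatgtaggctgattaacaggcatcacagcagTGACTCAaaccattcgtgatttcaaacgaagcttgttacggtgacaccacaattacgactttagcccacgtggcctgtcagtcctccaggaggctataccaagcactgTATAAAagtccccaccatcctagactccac
Sprr2h, chr3:92385435-92385684, plus strand: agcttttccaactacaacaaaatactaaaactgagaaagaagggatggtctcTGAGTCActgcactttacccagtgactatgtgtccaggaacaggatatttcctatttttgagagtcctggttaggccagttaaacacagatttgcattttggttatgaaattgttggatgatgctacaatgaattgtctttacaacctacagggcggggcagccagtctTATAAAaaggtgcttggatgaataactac
Lce1g, chr3:92752339-92752588, minus strand: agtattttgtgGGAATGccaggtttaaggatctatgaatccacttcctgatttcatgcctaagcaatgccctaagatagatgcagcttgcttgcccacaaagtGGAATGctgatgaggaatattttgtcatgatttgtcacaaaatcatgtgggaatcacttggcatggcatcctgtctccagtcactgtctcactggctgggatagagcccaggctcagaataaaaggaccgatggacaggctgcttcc

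The *Prr9* window held 1 AP-1 match 138 bases before the start and a TATA box 30 bases before it. In the *Sprr2h* window the AP-1 match lay 198 bases and the TATA box 29 bases before the start. The *Lce1g* window held neither of these letters and had 2 TEAD matches, 239 and 147 bases before the start. Among 32817 RefSeq promoter windows of the same length, 6.75% held the AP-1 letters, 12.4% the TATA box and 12.6% the TEAD letters, on either strand. Of the 32 windows of other Lce and Sprr genes, 8 (25.0%) held the AP-1 letters, 13 (40.6%) the TATA box and 7 (21.9%) the TEAD letters. The other 5 motifs were searched on both strands, and none of their matches overlapped the marked ones. CANNTG, the E-box bound by MyoD and its relatives, occurred in 66.2% of all windows, with 2 matches each for *Prr9* and *Lce1g* and 0 for *Sprr2h*. TTNNGNAA (C/EBP factors, in 36.8% of all windows) matched once, in *Sprr2h*. CACCC (KLF factors, 52.0%), TGACNNNGC (antioxidant element, 10.2%) and AGGTCA (the half-site of nuclear receptors such as PPARγ, 14.0%) had 0 matches in the 3 windows. These matches describe letters and not occupied sites.

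The series as a whole gave 18023 genes that reached 0.1 FPKM in 3 libraries or more. Fragments were recovered as whole numbers for 21224 genes, among them the 3 barrier genes, and summed to between 10836628 and 15133171 per library over these genes. *Pparg* itself lay between 5.10 and 7.56 FPKM in WT_0d, between 3.12 and 4.59 FPKM in WT_5d, between 28.0 and 46.4 FPKM in PPARγ/+_0d and between 40.1 and 92.7 FPKM in PPARγ/+_5d, so the libraries matched their labels. Of 10 genes of myoblasts and myotubes tested, 7 rose and 1 fell in WT cells and 9 rose in PPARγ/+ cells, whereas all 6 genes of cycling cells fell in both. Of all genes tested 8.94% rose and 7.53% fell in WT cells, and 9.11% rose and 6.06% fell in PPARγ/+ cells. Of the 7, *Myod1* (log2 fold change 1.31) lost its call when WT_0d replicate 1 or 3 or WT_5d replicate 1 or 2 was left out, with 0.86 as the lowest value. These calls compare days within a cell type and not the cell types. The paper reports that PPARγ/+ cells were markedly less able to form myotubes. Per library the summed FPKM of the 10 ran from 158 to 366 in WT_0d and from 1078 to 4637 in WT_5d. In PPARγ/+ cells it ran from 69.3 to 110 on 0d and from 1177 to 1383 on 5d. The WT libraries of a day thus differed in these genes, with *Myog* from 1.47 to 15.7 FPKM in WT_0d. The median log2 fold change of all genes from 0d to 5d was −0.08 in WT and −0.10 in PPARγ/+ cells, and median-ratio scaling moved it to 0.02 in each.

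In WT cells all 3 barrier genes were present on 0d and lower on 5d, where *Sprr2h* and *Lce1g* were left with 3 fragments or fewer and *Prr9* was still found in every library. *Prr9* read 4.44, 2.51 and 2.63 FPKM in the 3 WT_0d libraries and 0.531, 0.394 and 0.223 FPKM in the 3 WT_5d libraries. Every WT_5d library was below every WT_0d library, and the first WT_0d library was the highest. Its mean fell from 3.20 ± 1.08 to 0.383 ± 0.154 FPKM (SD, n = 3 each). From 249 fragments on 0d and 31 on 5d, the level on 0d was 8.01 times that on 5d, with a 95% exact binomial interval from 5.50 to 12.04 that covers counting error only, as do all such intervals here.

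For *Sprr2h* the WT_0d libraries read 1.58, 1.05 and 1.26 FPKM, and the WT_5d libraries 0, 0.0689 and 0 FPKM. The only fragment of this gene on 5d was in the second library, and the groups did not overlap. Its mean fell from 1.30 ± 0.263 to 0.0230 ± 0.0398 FPKM (SD, n = 3 each), from 65 fragments to 1. The ratio of the levels was 64.8, with an interval from 11.2 to 2598.

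*Lce1g* stood at 2.95, 1.37 and 1.63 FPKM in WT_0d and at 0, 0 and 0.142 FPKM in WT_5d. The first WT_0d library was again the highest, the 3 fragments on 5d all came from replicate 3, and the groups did not overlap. The mean fell from 1.99 ± 0.848 to 0.0475 ± 0.0822 FPKM (SD, n = 3 each), from 120 fragments to 3. The level on 0d was 39.9 times that on 5d, with an interval from 13.3 to 196.

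**Figure D1:**
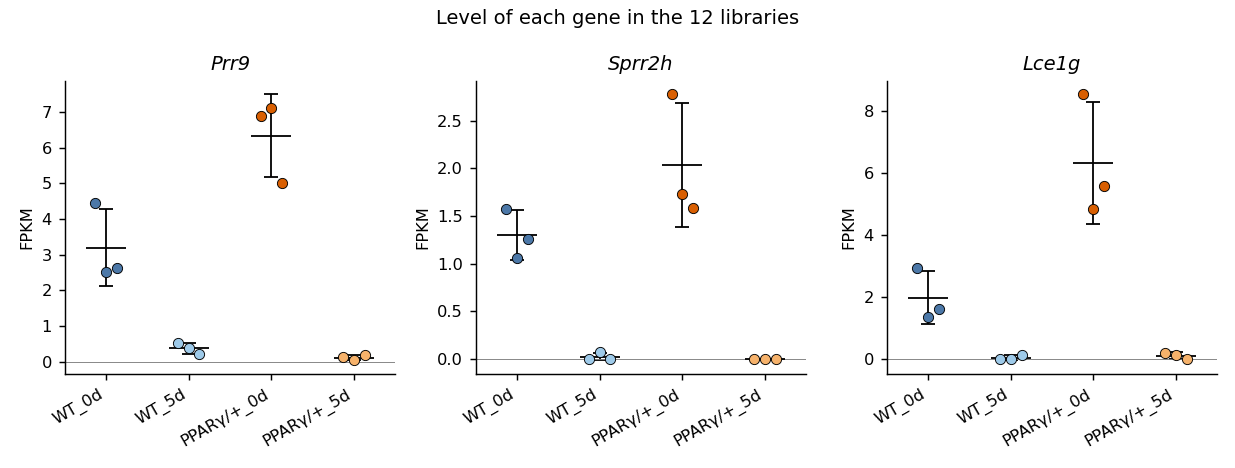
FPKM of *Prr9*, *Sprr2h* and *Lce1g* in each of the 12 libraries (points), with the mean and SD of the 3 libraries of a group (black). In both cell types every library on 0d lies above every library on 5d, which in PPARγ/+ cells the choice fixed. On 0d the PPARγ/+ libraries lie above the WT libraries, and the share of all genes with such a separation was not counted.

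The test of limma on log2(FPKM + 0.1) over the 6 WT libraries called all 3 genes as fallen, where 7.53% of all genes tested were called as fallen (p-value up to 0.05 without adjustment, and 2-fold or more). With the adjusted p-value in its place all 3 were called as well, beside 6.9% of all genes. On this scale, which understates the change of low genes, the log2 fold change of *Lce1g* was −3.88 (SE 0.46, Benjamini-Hochberg adjusted p-value 0.00148), that of *Sprr2h* −3.54 (SE 0.30, adjusted p-value 4.9e-04) and that of *Prr9* −2.78 (SE 0.33, adjusted p-value 0.00156). All 3 also had every 5d library below every 0d library, as did 30.9% of all genes tested. In an exact two-sided permutation test each gave p = 0.1, the smallest that 3 libraries against 3 allow. Ranked from the deepest fall among the 18023 genes, *Lce1g* was number 10, *Sprr2h* number 32 and *Prr9* number 179. These places depended on the value added to the FPKM, and with 1 added they were 320, 512 and 278, with all 3 still called. With a library left out they ran from 6 to 41 for *Lce1g*, from 16 to 81 for *Sprr2h* and from 135 to 263 for *Prr9*, and the shallowest were those without WT_0d replicate 1. The 3 barrier genes were chosen by the same change of day in PPARγ/+ cells, so the shares over all genes are a low yardstick for their fall in WT cells. *Cdc20*, *Troap* and *Gm22806*, the genes just outside the choice, were called as fallen in WT cells as well, at −3.96, −3.70 and −3.72. *Sprr2h* passed the filter on low values through its 0d libraries alone. In these bulk samples fewer cells with the RNA and less RNA per cell cannot be told apart.

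**Figure D2:**
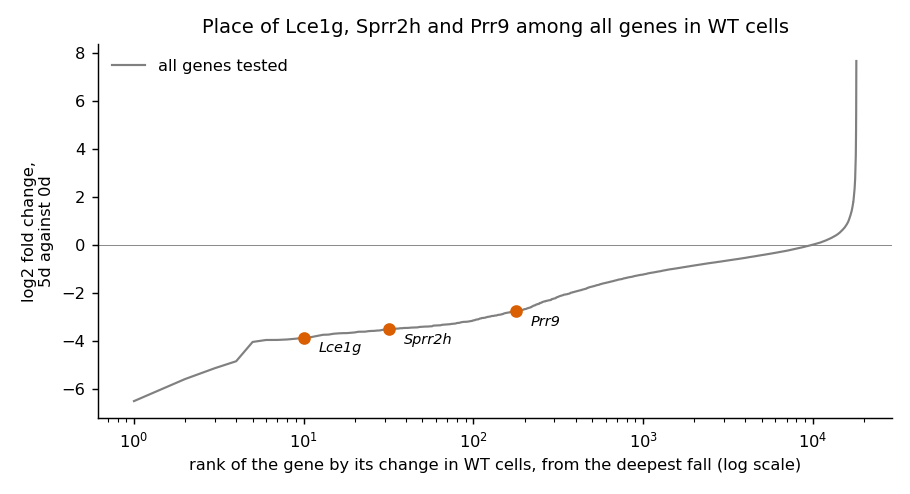
The log2 fold change of FPKM + 0.1 from 0d to 5d in WT cells (vertical axis) of all 18023 genes tested, ordered from the deepest fall (horizontal axis, log scale), with the 3 barrier genes as points. *Lce1g* is number 10, *Sprr2h* number 32 and *Prr9* number 179.

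The PPARγ/+ cells, whose values chose the genes, started higher and were also near 0 on 5d. *Prr9* read 6.89, 7.10 and 4.99 FPKM in PPARγ/+_0d and 0.122, 0.0393 and 0.182 FPKM in PPARγ/+_5d, from 547 fragments to 8. *Sprr2h* read 2.78, 1.73 and 1.58 FPKM in PPARγ/+_0d and 0 in all 3 PPARγ/+_5d libraries, from 111 fragments to 0. *Lce1g* read 8.55, 4.85 and 5.59 FPKM in PPARγ/+_0d and 0.209, 0.151 and 0 FPKM in PPARγ/+_5d, from 423 fragments to 7. The groups did not overlap for any of the 3 genes, which the choice fixed, beside 34.4% of all genes tested with every 5d library below every 0d library and 6.06% called as fallen (5.6% with the adjusted p-value). The level on 0d was 57.5 times that on 5d for *Prr9* (interval 29.0 to 134) and 50.8 times for *Lce1g* (interval 24.5 to 127). For *Sprr2h* it was at least 10.3-fold higher, with 5d set to a floor of 3 fragments in each library. The log2 differences of FPKM + 0.1 were −4.98 for *Lce1g*, −4.95 for *Prr9* and −4.37 for *Sprr2h*. Just outside the choice, which took falling genes that passed an adjusted p-value of 0.05, averaged 1 FPKM or more on 0d and had no overlap, were *Cdc20* (−4.08), *Troap* (−3.98) and *Gm22806* (−3.97).

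On 0d the mean FPKM in PPARγ/+ cells was 3.19 times that in WT cells for *Lce1g*, 1.98 times for *Prr9* and 1.57 times for *Sprr2h*. For each of them the lowest PPARγ/+_0d library was above the highest WT_0d library, for *Sprr2h* by a narrow margin of 1.58344 against 1.57666 FPKM. On 5d *Prr9* was lower in PPARγ/+ cells, at 0.299 times the WT mean and without overlap, from 8 fragments against 31. For *Lce1g* and *Sprr2h* the libraries of both cell types overlapped on 5d, where no library held more than 4 fragments of either gene. The steeper fall of *Prr9* in PPARγ/+ cells was thus made of a higher level on 0d and a lower one on 5d. The values of PPARγ/+ cells being those that chose the genes, these differences were not tested. How many of all genes tested separated the cell types without overlap on either day was not counted.

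The order of the 3 genes was not the same in the groups. FPKM is a level per length of exon, so the genes can be set side by side. In WT_0d *Prr9* was the highest in every library, with 47.6% to 50.9% of the summed FPKM of the 3 genes. *Lce1g* was above *Prr9* in replicates 1 and 3 of PPARγ/+_0d and below it in replicate 2, and their means, 6.33 ± 1.96 and 6.33 ± 1.16 FPKM (SD, n = 3), differed by less than their spread. *Sprr2h* had the lowest level of the 3 in every library on 0d. The summed FPKM ran from 4.94 to 8.98 in WT_0d, from 12.2 to 18.2 in PPARγ/+_0d, from 0.365 to 0.531 in WT_5d and from 0.182 to 0.331 in PPARγ/+_5d. Over the 12 libraries Pearson's r of log2(FPKM + 0.1) was 0.90 between *Lce1g* and *Prr9*, 0.95 between *Lce1g* and *Sprr2h* and 0.97 between *Prr9* and *Sprr2h*. These values only describe libraries that fall into groups by day, and they include the PPARγ/+ libraries that chose the genes.

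Most other precursors of the cornified envelope were silent or nearly so. Of 52 genes listed for this group in the table, 25 were above 0 in at least 1 library, 49 stayed under 1 FPKM in every library and 7 had enough signal to be tested. The list also took in a few genes that encode no precursor, such as those of peptidoglycan recognition proteins, and none of these was tested. In WT cells 4 fell and 0 rose, and in PPARγ/+ cells likewise 4 fell and 0 rose, beside 7.53% and 6.06% of all genes tested that fell and 8.94% and 9.11% that rose. *Lor*, *Tchh*, *Sprr2e* and *Sprr2j-ps* passed the filter through 0d libraries alone, so the filter favoured a fall for these 4 and the counts do not describe the precursors as a group. *Sprr2k* also needed its 0d libraries to pass, since on 5d only a single WT_5d library (0.986 FPKM) reached 0.1 FPKM. Without the filter the counts were again 4 in each cell type, out of the 25 above 0. With 1 added to the FPKM, 1 of them in WT and 2 in PPARγ/+ cells were still called.

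*Sprr1a*, a small proline-rich protein of the envelope, was the only one of the 7 with a group mean above 2 FPKM. It ran from 11.9 over a median of 13.7 to 14.1 FPKM in WT_0d and from 0.817 over 1.16 to 1.997 FPKM in WT_5d. In PPARγ/+ cells it ran from 38.5 over 39.6 to 46.8 FPKM on 0d and from 12.4 over 19.4 to 32.1 FPKM on 5d. All 5d libraries were below all 0d libraries of the same cells, and the PPARγ/+_5d libraries lay near or above the WT_0d level. The log2 fold change of *Sprr1a* was −3.31 in WT cells (SE 0.29, adjusted p-value 5.8e-04) and −1.06 in PPARγ/+ cells (SE 0.31, adjusted p-value 0.0296). Without PPARγ/+_0d replicate 3 or PPARγ/+_5d replicate 1 the latter was −0.98 or −0.73, and with median-ratio scaling or quantile normalization −0.93, so that it lost its call in each case. The difference between the cell types was 2.24 (SE 0.46) with an adjusted p-value of 0.058 from the interaction term of limma, short of the threshold of 0.05 that 0.76% of all genes passed. Over the alternatives this p-value ran from 0.025 to 0.147 and passed without WT_5d replicate 1, without WT_5d replicate 3 and without PPARγ/+_5d replicate 1.

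*Lor*, which encodes loricrin, fell in both cell types, with log2 fold changes of −1.97 in WT (SE 0.23, adjusted p-value 0.0015) and −2.17 in PPARγ/+ cells (SE 0.26, adjusted p-value 6.7e-04), from 40 fragments to 1 and from 71 to 5. *Tchh*, encoding trichohyalin of the hair follicle, fell likewise, with −1.18 in WT (adjusted p-value 0.0345) and −1.08 in PPARγ/+ cells (adjusted p-value 0.00785), from 64 fragments to 5 and from 69 to 9. Both stayed below 0.7 FPKM in every library, and neither was called with 1 added to the FPKM. *Tchh* also lost its call without WT_0d replicate 1 in WT cells (−0.87) and without PPARγ/+_0d replicate 3 in PPARγ/+ cells (−0.96).

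*Sprr2k* and *Sprr2e*, close relatives of *Sprr2h*, were each called in 1 cell type. *Sprr2k* fell by 3.27 in PPARγ/+ cells (SE 0.30, adjusted p-value 2.4e-04), from 62 fragments to 2, and gave −1.36 (SE 0.94, adjusted p-value 0.307) in WT cells, where a single WT_5d library held 16 of 17 fragments. *Sprr2e* fell by 1.44 in WT cells at an adjusted p-value of 0.0603, from 11 fragments to 1, and in PPARγ/+ cells it had 3 fragments on 0d and 0 on 5d. The WT call was lost without WT_0d replicate 1 (−1.26) or 3 (−1.13) and without WT_5d replicate 1 or 2 (−1.32 each). *Sprr1b* had 53 fragments in PPARγ/+_0d and 24 in PPARγ/+_5d against 3 and 0 in WT cells, and neither fall passed. *Sprr2j-ps* had at most 5 fragments in a group.

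**Figure D3:**
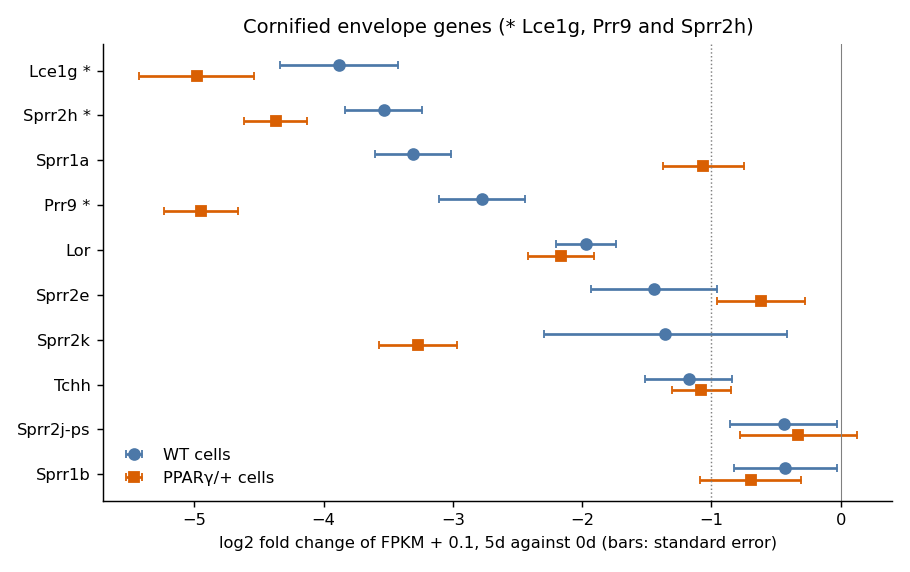
The log2 fold change of FPKM + 0.1 from 0d to 5d with its standard error (horizontal axis) for *Lce1g*, *Prr9*, *Sprr2h* (asterisks) and the 7 other cornified envelope precursors tested, in WT cells (blue circles) and PPARγ/+ cells (orange squares). The dotted line marks a fall of 2-fold. All values lie below 0. *Sprr1a* lies lower in WT cells, at −3.31 against −1.06. *Prr9* lies lower in PPARγ/+ cells, at −4.95 against −2.78, but its deep fall there is what chose it, and this difference was not tested.

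Genes around the 3 on chromosome 3 were looked at without regard to their function. Within 1 Mb of the span lay 101 other genes of the table, of which 40 were above 0 and 15 were tested. In WT cells 6 fell and 0 rose, and in PPARγ/+ cells 4 fell and 0 rose, beside 7.53% and 6.06% of all genes that fell. Of the 15, *Lor*, *Tchh*, *Sprr2e* and *Sprr2j-ps* passed the filter through 0d libraries alone, and *Sprr2k* also needed its 0d libraries to pass. The envelope precursors named above make up 4 of the 6 and all 4 of the latter. The other 2, both annotated as processed pseudogenes, were *Gm4202* (−1.00009 in WT cells, adjusted p-value 0.0032) and *Rplp0-ps1* (−1.01 in WT cells, adjusted p-value 0.091). Both lay close to the line of 2-fold. *Rplp0-ps1* had 6 to 10 fragments in a WT_0d library and 1 to 5 in a WT_5d library. *S100a11* and *S100a10*, of the S100 family at the end of the complex, were far more abundant, with means of 1360 and 414 FPKM in WT_0d. They gave −0.86 and −0.72 in WT cells and did not reach 2-fold. The lowest value of a tested neighbour that was no precursor was −1.01 in WT cells (*Rplp0-ps1*) and −0.99 in PPARγ/+ cells (*Gm9774*, a gene named after its values were seen).

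**Figure D4:**
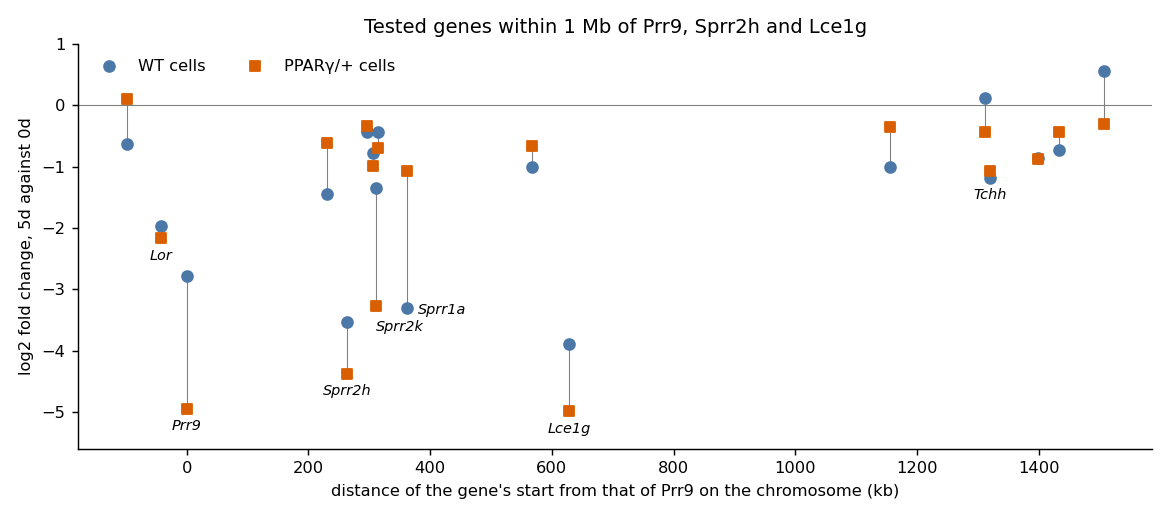
The log2 fold change of FPKM + 0.1 from 0d to 5d (vertical axis) of the tested genes within 1 Mb of the 3 barrier genes, against the distance of the gene's start from that of *Prr9* in kb (horizontal axis), in WT cells (circles) and PPARγ/+ cells (squares), joined by a line for each gene. In WT cells *Sprr1a*, which lies between the 3 genes, is at −3.31, below *Prr9* at −2.78. The place of the 3 genes at the bottom in PPARγ/+ cells follows from how they were chosen.

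Other parts of the epidermal programme gave mixed directions. Of 12 keratins and desmosome genes tested, 5 fell and 0 rose in WT cells and 5 fell and 2 rose in PPARγ/+ cells, with medians of −0.89 and −0.64. Of all genes tested 7.53% fell and 8.94% rose in WT cells, and 6.06% fell and 9.11% rose in PPARγ/+ cells. *Krt14*, a keratin of basal keratinocytes, fell from 18.7 ± 3.51 to 6.75 ± 0.0583 FPKM in WT cells (adjusted p-value 7.8e-04) and from 28.8 ± 8.86 to 9.40 ± 0.570 FPKM in PPARγ/+ cells (adjusted p-value 0.00145). *Krt13* and *Krt19*, of internal and simple epithelia, fell as well, with log2 fold changes of −3.35 and −2.81 in WT cells and −1.75 and −2.33 in PPARγ/+ cells. *Krt16*, a keratin of stressed epidermis, gave −1.15 and −2.01 from levels under 1 FPKM, and without WT_5d replicate 1 the former was −0.96 and no longer called. With 1 added to the FPKM neither was called, at −0.28 and −0.62.

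The enzymes and scaffold proteins that assemble the envelope rose where they were called. Of 20 tested, 0 fell and 5 rose in WT cells, and 0 fell and 4 rose in PPARγ/+ cells, with medians of 0.14 and 0.24, beside 8.94% and 9.11% of all genes that rose. The values of 8 and 7 of the 20 lay below 0. *Tgm2*, a transglutaminase of many tissues, rose by 2.998 in WT cells (adjusted p-value 5.9e-04) and by 2.86 in PPARγ/+ cells (adjusted p-value 5.0e-05). *Ppl*, which encodes periplakin, rose by 1.47 and 1.99. *Asprv1* and *Sult2b1*, an epidermal protease and a sulfotransferase of cholesterol, rose by 1.64 and 1.56 in WT cells from means under 0.1 FPKM, and gave 0.28 and −0.45 in PPARγ/+ cells, where neither was called. The rise of *Sult2b1* lost its call without WT_0d replicate 3 (1.45) or WT_5d replicate 2 (1.37), and with 1 added to the FPKM neither gene was called.

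Among 28 transcription factors of the epidermis tested, 1 fell and 6 rose in WT cells and 2 fell and 4 rose in PPARγ/+ cells, and 21 and 22 were not called. Of all genes tested 7.53% fell and 8.94% rose in WT cells, and 6.06% fell and 9.11% rose in PPARγ/+ cells. *Trp63*, which encodes p63, the regulator of the epidermal lineage, rose from 0.0371 ± 0.0233 to 1.96 ± 0.784 FPKM in WT cells (log2 fold change 3.84, adjusted p-value 6.7e-04) and from 0.0750 ± 0.0440 to 1.06 ± 0.172 FPKM in PPARγ/+ cells (2.75, adjusted p-value 2.1e-04). *Fos*, a component of AP-1, rose by 2.54 in WT cells (SE 0.64, adjusted p-value 0.0227) and by 2.88 in PPARγ/+ cells. Its WT_5d libraries ran from 7.81 to 52.7 FPKM. With a WT library left out, its change ran from 1.79 to 3.16 and its adjusted p-value from limma reached 0.076. *Hopx* rose by 2.28 and 1.84. *Grhl3*, a factor of barrier formation, rose by 2.61 in WT cells (adjusted p-value 0.00429) and gave 0.81 in PPARγ/+ cells. With 1 added to the FPKM, *Grhl3* in WT cells (0.86) and *Trp63* in PPARγ/+ cells (0.93) fell short of 2-fold.

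**Figure D5:**
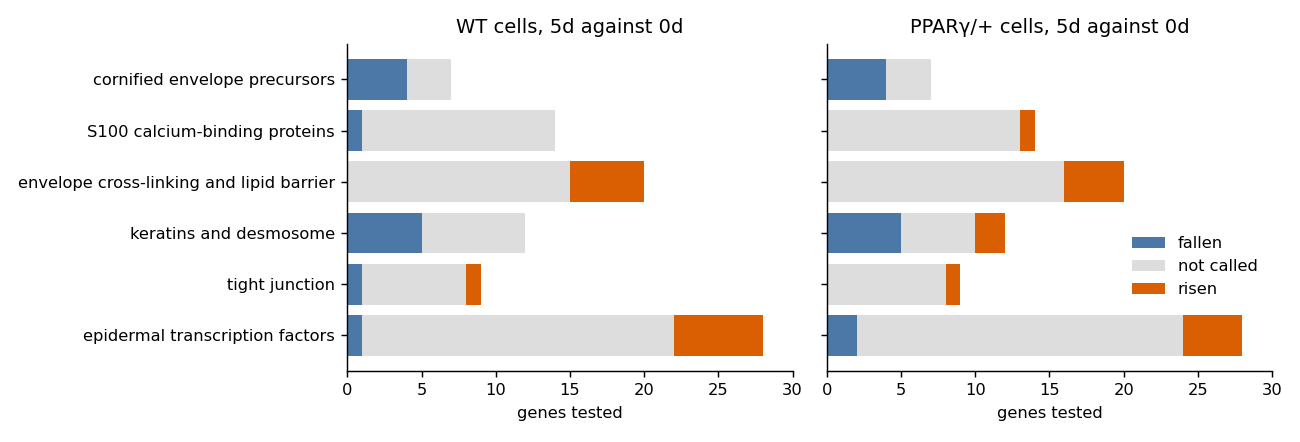
Number of genes tested (horizontal axis) in 6 groups of epidermal genes that fell (blue), rose (orange) or were not called (grey) from 0d to 5d, in WT cells (left) and PPARγ/+ cells (right). The other cornified envelope precursors (4 and 4) and the keratins and desmosome genes (5 and 5) hold most of the falls. The called genes of the cross-linking group (5 and 4) all rose. Of the 7 precursors tested, 4 passed the filter through 0d libraries alone, and *Sprr2k* also needed its 0d libraries to pass, which favoured a fall. Of all genes tested 7.53% fell and 8.94% rose in WT cells, and 6.06% fell and 9.11% rose in PPARγ/+ cells.

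Markers of keratinocytes were measured beside these results, since C2C12 is a muscle line. Of 10, 5 were tested, of which *Krt14* fell and *Trp63* rose in both cell types, beside 7.53% and 6.06% of all genes that fell and 8.94% and 9.11% that rose. The median log2 fold change of the 5 was 0.18 in WT and 0.03 in PPARγ/+ cells, and 2 of them were below 0 in each. *Sfn* averaged 1.18 FPKM in WT_0d and 0.631 FPKM in WT_5d, *Krt10* 1.43 and 1.62 FPKM, and neither was called, nor was *Cdh1*. Of those not tested, *Dsg1a* was at 0 in all libraries, *Krt5*, *Krt1* and *Krt15* stayed below 0.1 FPKM in every library, and *Dsg3* averaged 0.00322 FPKM in WT_0d and 0.367 FPKM in WT_5d. The summed FPKM of the list lay between 18.1 and 24.7 in WT_0d, 10.3 and 12.7 in WT_5d, 22.1 and 39.3 in PPARγ/+_0d and 12.6 and 13.5 in PPARγ/+_5d, most of it from *Krt14*. This sum, but not the list gene by gene, moved in the direction of *Lce1g*, *Prr9* and *Sprr2h*, and its part in their fall was not tested.

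Genes whose levels followed the mean of the 3 over the 12 libraries were sought among 12397 genes with a group mean of at least 1 FPKM. The highest Pearson's r were those of *Rps27l* (0.995), *Vps36* (0.992), *Psrc1* (0.992), *Ankrd54*, *Hnrnpul2*, *Cdc5l*, *Morf4l2*, *Ciapin1*, *Fxyd5* and *Rtn3* (0.987). *Psrc1* and *Fxyd5* changed by more than 2-fold in both cell types, with log2 fold changes of −2.09 and −1.42 in WT and −2.84 and −2.17 in PPARγ/+ cells, whereas *Rtn3* gave −0.40 and −0.47. Closest to *Lce1g* alone were *Ankrd13c*, *Abce1* and *Tmem237*, to *Prr9* *Smdt1*, *Pdzd11* and *Stip1*, and to *Sprr2h* *Vps36*, *Rps27l* and *Psrc1*. Of the other envelope precursors only *Sprr1a* and *Sprr2k* reached the level for this search, and since the libraries of a group lie close together, r here mostly describes the 4 group means.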

How the data were processed

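RNA of 12 libraries was sequenced with a TruSeq RNA kit. The labels do not say whether the libraries of a group came from separate cultures, although the study calls them biological replicates, so p-values may measure technical spread. The authors deposited the FPKM of each Ensembl gene, made with Trim Galore, STAR and HTSeq on GRCm38 per the study's methods. The submitters' processing notes name STAR and mm9. A second deposited table by the authors holds log2(FPKM + 1) of the same values and was not analysed further.

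*Lce1g*, *Prr9*, *Sprr2h*, the gene lists and the tests were chosen with earlier results of these data known. log2(FPKM + 0.1) of genes with at least 0.1 FPKM in at least 3 libraries was fitted in R 4.3.3 with limma 3.58.1, using its moderated test with a mean-variance trend, 5d against 0d in the 6 libraries of each cell type, and the interaction over all 12. A gene counted as called from 2-fold upwards at p-values up to 0.05 without adjustment, the thresholds of the study. Adjusted p-values are those of limma over all 18023 genes. Fragments were FPKM times exonic length (GRCm38 annotation) times the study's mapped read pairs, taken as whole within 0.01, and their ratios between days were scaled by those pairs. The 3 genes had whole fragments in every library. Intervals are exact binomial (Clopper-Pearson, scipy 1.17.1).

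Named genes were the 3 genes, the next 3 outside the choice, *Pparg*, every tested envelope precursor, from each other list the 4 genes called in WT cells with the largest change there, called neighbours within 1 Mb, the 10 genes likest the mean of the 3 genes and the closest 3 for each, and the keratinocyte markers. *S100a10*, *S100a11*, *S100a8* and *S100a7a* were named after their values were seen. Promoters came from RefSeq, which matched all 3 genes. The fit was tested on simulated data. Alternatives were other pseudocounts, filters and scalings, adjusted p-values, 1 joint fit, the replicate block and leaving out each library.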

Additional observations from a re-analysis of the deposited data

Results flagged for a closer look

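*Myf5*, a factor of early myoblasts and 1 of the muscle markers, changed differently from 0d to 5d in the cell types. It fell from 12.02 ± 0.988 to 4.43 ± 1.33 FPKM in WT cells and went from 3.96 ± 0.297 to 6.78 ± 1.51 FPKM in PPARγ/+ cells (SD, n = 3 each), and the log2 changes differed by 2.20 (adjusted p-value 0.0084, interaction term of limma). The difference kept its call under all alternatives run.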

How the results depend on the processing

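*Lce1g*, *Prr9* and *Sprr2h* kept their fall in WT cells under all alternatives run. With each library left out, the log2 fold change ran from −4.31 to −3.57 for *Lce1g*, from −2.997 to −2.51 for *Prr9* and from −3.79 to −3.40 for *Sprr2h*, and adjusted p-values stayed at or below 0.0106. Their size depended on the value added to the FPKM, and over the other alternatives it ran from −6.25 to −1.48, from −3.06 to −1.58 and from −6.02 to −1.16. With 1 added, the genes called as fallen numbered 688 in WT (from 1358) and 542 in PPARγ/+ cells (from 1093). Of the other envelope precursors, 1 in WT and 2 in PPARγ/+ cells were then called, and the same numbers were called with a filter at 1 FPKM, where 2 were tested. With libraries left out the count ran from 2 to 4 in either cell type, with 2 without WT_0d replicate 1 and 2 without PPARγ/+_0d replicate 3. Whether replicate numbers pair the samples is not settled by the values. Deviations of same-numbered libraries correlated weakly, between −0.067 and 0.083. In PPARγ/+ cells each library correlated best with its own number (0.042, 0.083 and 0.034). In WT cells not every library did. The main fits left the libraries unpaired. With the replicate block 1378 and 1116 genes were called as fallen and all 3 genes kept their call. On 5d the 3 genes had at most 16 fragments in a library, which limits their levels there.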

Other observations

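The S100 calcium-binding proteins, many of which lie further along the same chromosome, had few called genes. Of 14 tested, 1 fell and 0 rose in WT cells, and 0 fell and 1 rose in PPARγ/+ cells, near the shares of all genes tested (7.53% fell in WT and 9.11% rose in PPARγ/+ cells). *S100a5* fell by 1.62 in WT cells (adjusted p-value 0.0259) and *S100a8* rose by 1.205 in PPARγ/+ cells. *S100a7a*, which the list left out because of its symbol, rose by 2.21 in WT cells and by 2.75 in PPARγ/+ cells. *F11r*, which encodes a tight junction adhesion protein, rose by 1.23 in WT cells and by 1.42 in PPARγ/+ cells. The rise of *F11r* in WT cells lost its call without WT_0d replicate 3 or WT_5d replicate 1, with 0.91 as the lowest value, and the fall of *S100a5* with 1 added to the FPKM (−0.42).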
